A study of Mus musculus with 8 samples.

Results

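The transcripts of 36 genes of glycolysis and the hypoxia response were followed in cultured mouse peritoneal mesothelial cells (MCs), the flat cells that line the abdominal cavity. The members were taken by gene symbol from a table of 13687 genes. All 36 were present, all 36 passed the filter on low values that left 13665 genes for testing, and the least covered member had 18 reads in its poorest library. RNAseq was done on poly(A) RNA of 8 cultures in 4 groups of 2. These were WT MCs kept static, WT MCs stretched for 24 h, CAV1-/- MCs (labelled Cav-1-) kept static and CAV1-/- MCs stretched for 24 h. The cells came from the digested parietal peritoneum of 2 WT and 2 CAV1-/- littermates of the B6.Cg-CAV1tm1mls/J line, with no age given for them, and were grown to confluence before stretching. Each animal gave 1 static and 1 stretched culture, so the replicate number names the animal within a genotype. The deletion of Cav1, which encodes the main protein of caveolae, is present in every cell of the CAV1-/- animals.

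Glycolysis splits glucose into pyruvate in the cytosol, and lactate dehydrogenase turns pyruvate into lactate when it is not passed to the mitochondria. Hypoxia-inducible factor (HIF) is a pair of an alpha subunit and ARNT. Oxygen-dependent prolyl hydroxylases mark the alpha subunit for destruction by VHL, so that HIF builds up when oxygen is scarce and then raises transcription of glucose transporters, most glycolytic enzymes and a set of stress genes. HIF protein is mainly set by this destruction, so the transcript of Hif1a is not a measure of HIF activity, and neither protein nor oxygen is part of these data.

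HIF binds DNA at a short core, A or G followed by CGTG. The 250 bases before each RefSeq start site (GRCm38.p6) were searched for ACGTG and GCGTG on both strands, with CACGTG, the site also bound by MYC and USF factors, counted on both strands because it is its own reverse complement. RefSeq windows were found for 33 of the 36 members (50 windows). At least 1 match was held by 39 of the 50 member windows (78%) against 38.6% of all 32851 windows, and by 30 of 33 member genes (90.9%) against 41.5% of 27025 genes. At least 2 matches were held by 42% of the member windows and 16.7% of all windows. Windows of 1 gene could overlap, and counted by gene these shares were 57.6% and 18.7%. A single CACGTG counts as 2 matches, and it was in 10% of the member windows and 6.02% of all windows. The median GC content was 61.8% in the member windows and 52.4% over all windows, and its part in the difference was not tested. A match is a stretch of letters and not a bound site. Shown are the windows of Ldha and Ldhb, the 2 lactate dehydrogenase subunits whose values ran in opposite directions between animals, of Pgk1, a textbook HIF target, and of Hk2, the 1 member with every CAV1-/- culture above every WT culture. They lie at chr7:46845554-46845803 on the plus strand for Ldha (the first of 2 windows), chr6:142507958-142508207 on the minus strand for Ldhb, chrX:106186850-106187099 on the plus strand for Pgk1 and chr6:82774455-82774704 on the minus strand for Hk2. All are written 5′ to 3′ with matches on either strand in capitals.
Ldha: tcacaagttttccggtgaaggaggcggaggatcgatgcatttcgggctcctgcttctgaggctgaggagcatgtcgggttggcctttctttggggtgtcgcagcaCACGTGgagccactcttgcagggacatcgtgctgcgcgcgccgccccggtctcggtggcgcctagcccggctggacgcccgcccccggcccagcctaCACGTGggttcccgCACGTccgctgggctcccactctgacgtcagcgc
Ldhb: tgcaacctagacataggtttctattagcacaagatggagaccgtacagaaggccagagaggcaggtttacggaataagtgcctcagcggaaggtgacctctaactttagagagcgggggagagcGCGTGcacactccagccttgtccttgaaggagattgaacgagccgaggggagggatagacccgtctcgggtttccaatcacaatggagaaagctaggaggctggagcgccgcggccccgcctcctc
Pgk1: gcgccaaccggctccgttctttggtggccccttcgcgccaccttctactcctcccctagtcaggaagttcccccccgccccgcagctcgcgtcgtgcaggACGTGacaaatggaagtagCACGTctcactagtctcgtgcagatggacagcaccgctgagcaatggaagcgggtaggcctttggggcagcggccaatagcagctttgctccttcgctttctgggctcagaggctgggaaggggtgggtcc
Hk2: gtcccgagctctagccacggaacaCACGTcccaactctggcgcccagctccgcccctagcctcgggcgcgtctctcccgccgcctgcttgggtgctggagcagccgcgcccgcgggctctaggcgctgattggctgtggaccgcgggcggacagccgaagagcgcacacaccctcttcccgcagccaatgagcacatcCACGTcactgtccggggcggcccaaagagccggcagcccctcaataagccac
The Ldha window held 5 matches, of which CACGTG accounts for 4 since both of its copies count on each strand. The Pgk1 and Hk2 windows held 2 each and the Ldhb window 1.

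Values are given as TMM-normalized CPM, the reads of a gene scaled to a library total that was adjusted by the TMM method, with replicate 1 before replicate 2. Library totals were 9777738 to 14237503 reads in the static cultures and 15861571 to 21203938 in the stretched cultures, so depth and stretch cannot be told apart, and 3 reads, the smallest amount taken as detectable, stand for 0.146 to 0.308 CPM. Cav1 was at 764 and 275 CPM in static and 570 and 247 CPM in stretched WT MCs, against 12.8 to 34.5 CPM in the 4 CAV1-/- cultures. Of 16 listed mesothelial markers 15 were in the table, Calb2 not among them. Their sum was 3145 to 4162 CPM in WT and 929 to 1181 CPM in CAV1-/- cultures. Of the 15, 13 were lower in every CAV1-/- than in every WT culture, against 5.88% of all genes. Leukocyte markers summed to 5837 and 5579 CPM in the cultures of CAV1-/- replicate 1 and to between 94.5 and 542 CPM in the other 6 cultures, with all 15 highest in both cultures of that animal. Of the endothelial markers Pecam1, Cldn5 and Tie1 were not in the table. The 5 present summed to 40.0 to 70.0 CPM in WT and 13.4 to 69.6 CPM in CAV1-/- cultures. Of the adipocyte markers Adipoq, Cidec and Lep were not in the table. The 2 present summed to 28.6 and 26.6 CPM in CAV1-/- replicate 1 and to 3.17 to 10.35 CPM in the other 6 cultures. In bulk cultures fewer cells of a type and less RNA per cell cannot be told apart.

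The glycolytic enzymes were among the strongly expressed members. Per kilobase of transcript, the mean level over the 8 cultures was 1353 CPM for Pkm, the last enzyme of glycolysis, 1132 for Eno1, 1035 for Aldoa, 870 for Ldha and 581 for Pgk1. The rate-setting first step was far lower, with 24.0 CPM per kilobase for Hk1 and 18.1 for Hk2. Of the HIF subunits, Hif1a stood at 82.8 CPM per kilobase and its partner Arnt at 19.8, whereas Epas1, the second alpha subunit (HIF-2 alpha), stood at 3.19. The lowest members per kilobase were Epas1, Ankrd37 (5.07), Mxi1 (5.85), Aldoc (7.33) and Car9 (9.68).

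Some enzyme families were dominated by 1 isoform and others were shared, and shares are given per kilobase within each culture. Aldoa, the muscle-type aldolase, made up 98.8 to 99.8% of Aldoa and Aldoc together. Eno1 made up 96.7 to 98.1% of the 3 enolases. Ldha made up 93.7 to 99.2% of the lactate dehydrogenase pair. Phosphofructokinase, the committed step, was shared more evenly, with Pfkl, the liver type, at 55.1 to 70.8%, Pfkp, the platelet type, at 14.3 to 30.0% and Pfkm, the muscle type, at 6.51 to 19.5%. Hk1 (47.2 to 61.9%) and Hk2 (32.8 to 50.0%) were close to each other. Hk3, a hexokinase of myeloid cells and not a member, made up 20.0 and 11.99% of the 3 hexokinases in the static and stretched cultures of CAV1-/- replicate 1 and 0.787 to 3.69% in the other 6. Slc2a1 (GLUT1) made up 82.9 to 93.0% of Slc2a1 and Slc2a3 in WT cultures and 97.9 to 98.7% in CAV1-/- cultures. The prolyl hydroxylases were shared, with Egln1 at 22.7 to 40.7%, Egln3 at 29.1 to 52.1% and Egln2, not a member, at 20.9 to 43.2%. Of the pyruvate dehydrogenase kinases, Pdk1 made up 13.8 to 43.7% and Pdk3, not a member, 43.8 to 62.35%.

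Most members differed between the cultures numbered 1 and the cultures numbered 2 in every group, a pattern noticed after the values were seen and therefore described without a test. In all 4 groups replicate 1 was above replicate 2 for 29 of the 36 members (80.6%), against 21.7% of all genes tested. The reverse held for 1 member, Ldhb, against 21.4% of all genes. The median difference of replicate 1 minus replicate 2 over the members was 0.75 on the log2(CPM + 1) scale in static WT, 0.95 in stretched WT, 0.49 in static CAV1-/- and 0.75 in stretched CAV1-/- cultures, while the medians over all genes lay between -0.02 and 0.01. A difference of more than 0.5 log2 in all 4 groups was shown by 16 members (44.4%) and by 3.04% of all genes.

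These 16 members included the glucose transporter Slc2a1, the lactate exporter Slc16a3 and the enzymes Gpi1, Pfkp, Aldoa, Aldoc, Gapdh, Pgk1, Pgam1, Pkm and Ldha. The others of the 16 were the hypoxia-induced genes Bnip3, Ndrg1, Ankrd37, Car9 and Ero1l. The pathway from uptake to lactate export was covered in part, since Hk1, Hk2, Pfkl, Tpi1 and Eno1 were not among the 16. Pgk1, which makes the first ATP of glycolysis, was at 1121 and 495 CPM in static WT, 1352 and 528 in stretched WT, 1658 and 913 in static CAV1-/- and 1586 and 828 in stretched CAV1-/- cultures. Every replicate 1 culture was thus above every replicate 2 culture. Car9, a cell surface carbonic anhydrase that is widely used as a marker of hypoxic cells, was at 33.8 and 5.57 CPM in static WT, 40.5 and 4.44 in stretched WT, 33.7 and 2.67 in static CAV1-/- and 33.0 and 2.90 in stretched CAV1-/- cultures. Its 4 replicate 1 values lay close together in both genotypes and conditions, all far above the replicate 2 values. Ero1l, an oxidase of protein folding in the endoplasmic reticulum, was at 279 and 101 CPM in static WT, 304 and 101 in stretched WT, 473 and 126 in static CAV1-/- and 448 and 147 in stretched CAV1-/- cultures. The same order held, with no overlap.

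**Figure D1:**
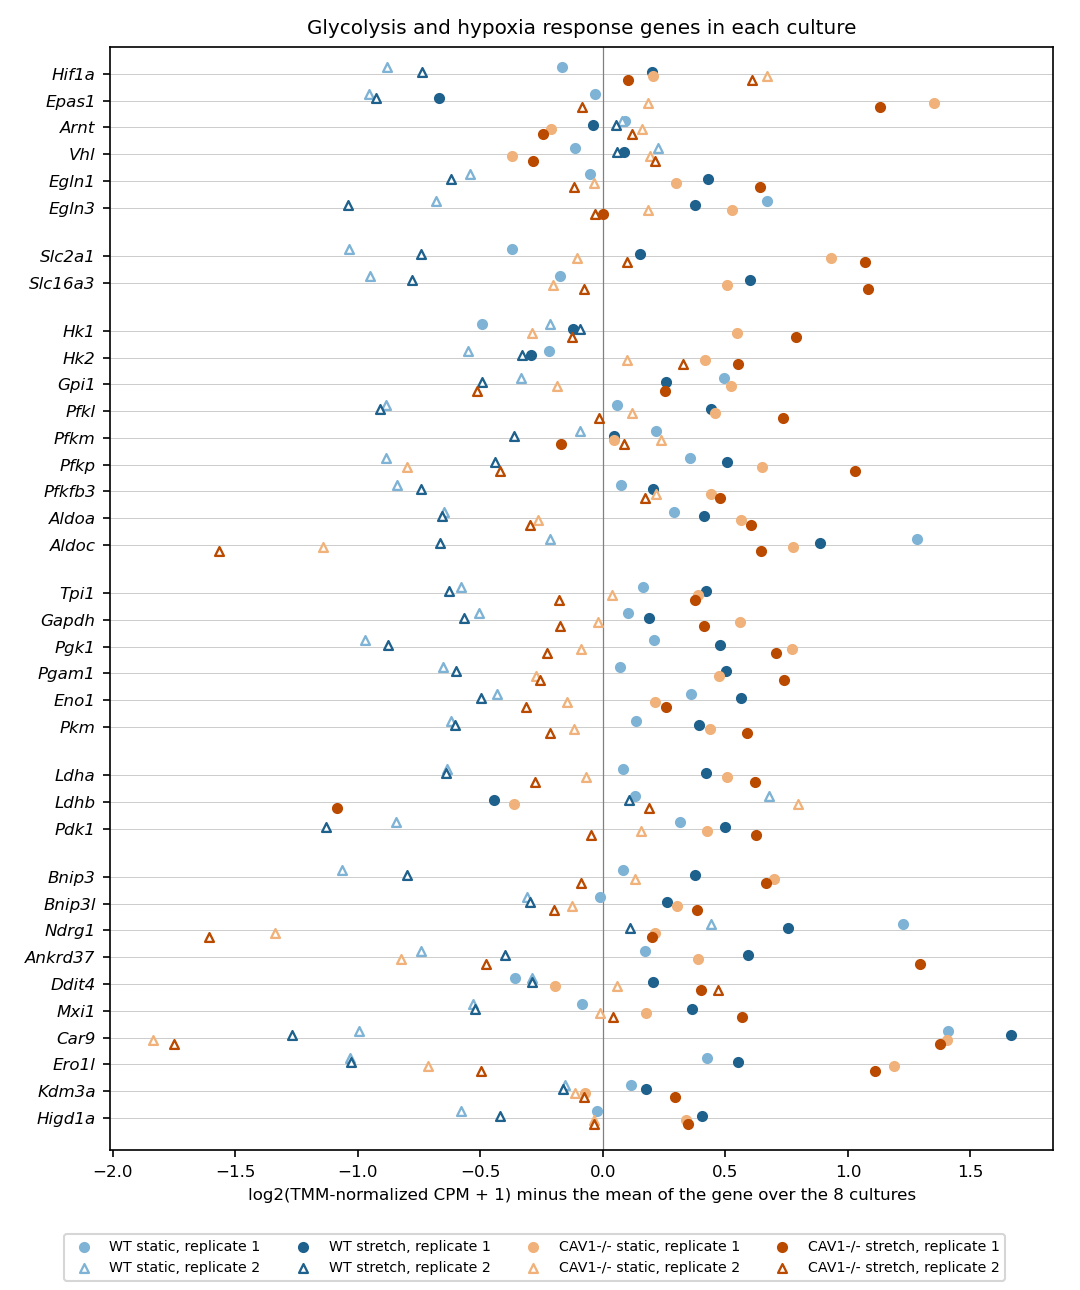
Log2(TMM-normalized CPM + 1) of each of the 36 members in each of the 8 cultures, minus the mean of that gene, on the horizontal axis, with members on the vertical axis grouped by role. Filled circles (replicate 1) lie to the right of open triangles (replicate 2) in all 4 groups for 29 members, and Ldhb is the 1 member with the reverse order in all 4 groups.

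A further 6 members had a mixed order between the replicate numbers. They were the HIF subunits Hif1a and Arnt, the ubiquitin ligase subunit Vhl, the hexokinase Hk1, Pfkm and Ddit4. Hif1a was higher in replicate 1 of WT (327 and 199 CPM static, 423 and 219 stretched) and lower in replicate 1 of CAV1-/- (423 and 585 static, 395 and 560 stretched). Arnt ranged from 71.7 to 95.1 CPM over the 8 cultures. Ldhb, the heart-type subunit of lactate dehydrogenase, was at 31.5 and 46.5 CPM in static WT, 20.9 and 31.0 in stretched WT, 22.1 and 50.6 in static CAV1-/- and 13.0 and 32.9 in stretched CAV1-/- cultures, so that it ran against Ldha in every group.

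Together, the 16 glycolytic enzyme genes from hexokinase to pyruvate kinase and lactate dehydrogenase took 1.495 and 0.870% of all reads in static WT and 1.78 and 0.867% in stretched WT cultures. In CAV1-/- cultures they took 1.72 and 1.17% static and 1.81 and 1.06% stretched. Markers of other cells moved with the replicate number as well. Of the leukocyte markers 14 of 15 were higher in replicate 1 in all 4 groups, with sums of 521 and 94.5 CPM in static and 542 and 103 CPM in stretched WT cultures. The muscle markers Cnn1, Myh11, Des and Acta1 (4 of 6 in the table, Ckm not among them) were higher in replicate 1 in all 4 groups, and the list summed to 864 and 230 CPM in static WT, 1043 and 238 in stretched WT, 1982 and 424 in static CAV1-/- and 2258 and 436 in stretched CAV1-/- cultures. All 8 fibroblast markers were lower in replicate 1 in all 4 groups. Their part in the pattern was not tested, and the labels do not say whether cultures with the same number in the 2 genotypes shared anything else.

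**Figure D2:**
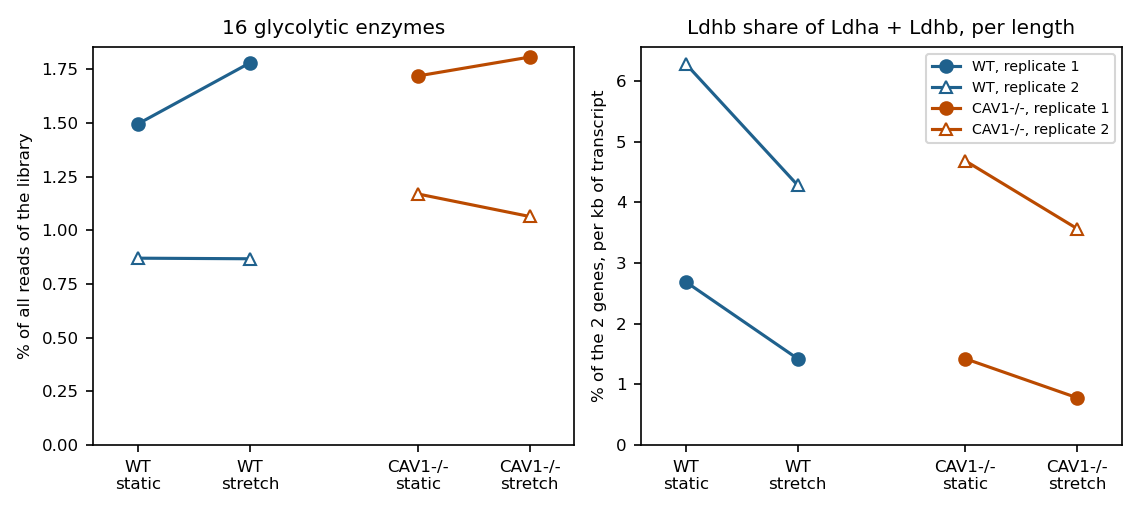
Left, the percentage of all reads of each library that fell on the 16 glycolytic enzyme genes, and right, the share of Ldhb in Ldha and Ldhb together per kilobase of transcript, with a line joining the static and the stretched culture of each animal. The enzyme share was higher in replicate 1 (1.495 to 1.81%) than in replicate 2 (0.867 to 1.17%), and the Ldhb share was lower on stretch in each of the 4 animals.

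The first comparison asked what 24 h of stretch did in WT MCs. The transporters Slc16a3 and Slc2a1 had the highest fitted values and Ldhb the lowest, but no member passed the test. Limma called 0 of 36 members at an adjusted p under 0.05 (0% of all genes, lowest member adjusted p = 1), 0 members had an unadjusted p of at most 0.05 (2.27% of all genes), and edgeR's quasi-likelihood test and DESeq2 on the recovered reads each called 0. The fitted log2 difference was above 0 for 26 members and below 0 for 10, with a median of 0.11 against -0.02 over all genes. Both WT animals were higher on stretch for 15 members (41.7%, against 28.7% of all genes) and lower for 7 (19.4%, against 33.9%). The 2 animals did not contribute alike, since the median of the members was 0.23 in WT replicate 1 and -0.0012 in WT replicate 2.

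The highest fitted values in WT were those of the 2 transporters. Slc16a3 (MCT4), which exports lactate, was at 225 and 131 CPM in static and 385 and 147 CPM in stretched cultures, a log2 difference of 0.47 (SE 0.60, adjusted p = 1 by limma). Slc2a1, on chromosome 4 from 119108711 to 119137983, was at 233 and 146 CPM static and 334 and 180 CPM stretched, a log2 difference of 0.41 (SE 0.52, adjusted p = 1 by limma). Both were higher on stretch in each animal, yet the static and stretched groups overlapped. Ankrd37, an ankyrin repeat gene used as a HIF readout, was at 4.69 and 2.02 CPM static and 6.61 and 2.83 CPM stretched (log2 difference 0.38, SE 0.75, adjusted p = 1 by limma). The lowest fitted values were those of Ldhb (-0.57, SE 0.55), Aldoc, the brain-type aldolase (-0.42, SE 1.05), and Ndrg1, a growth and stress gene (-0.40, SE 0.75), each with an adjusted p of 1 by limma. The standard errors rest on 1 spread shared by the 4 groups, and this fit does not use the pairing of the cultures by animal. With the animal entered as a block, limma gave an adjusted p of 0.157 for Ldhb, the lowest of the members. The adjusted p was 0.189 for Slc2a1 and 0.217 for Ndrg1, so no member passed in that fit either.

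In CAV1-/- MCs the same question gave 0 of 36 members called by limma (0% of all genes, lowest member adjusted p = 1), and 0 by edgeR's quasi-likelihood test and by DESeq2. Ddit4, an inhibitor of mTORC1 that many stresses induce, was the 1 member with an unadjusted p of at most 0.05 (2.78% of members, 2.09% of all genes). It was at 97.7 and 116 CPM static and 148 and 155 CPM stretched, so the groups did not overlap (log2 difference 0.50, SE 0.18, adjusted p = 1 by limma). The median over the members was 0.0042, with 19 above and 17 below 0. Both CAV1-/- animals were higher on stretch for 12 members (33.3%, against 30.0% of all genes) and lower for 13 (36.1%, against 30.9%). Other high values were those of Ankrd37 (0.63, SE 0.75) and Pfkp (0.38, SE 0.74). The lowest were those of Ldhb (-0.66, SE 0.55), Egln3, a prolyl hydroxylase that HIF itself induces (-0.37, SE 0.58), and Gpi1, which interconverts glucose and fructose phosphates (-0.30, SE 0.45). With the animal as a block, the lowest adjusted p of a member was 0.120 by limma, for Ldhb.

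Over the 4 animals, 8 members were higher on stretch in every animal (22.2%, against 14.5% of all genes) and 7 were lower in every animal (19.4%, against 16.9%). The 8 were Slc2a1, Slc16a3, Hk1, Pfkp, Pgam1, Ankrd37, Higd1a and Mxi1, a MYC antagonist. The 7 were Arnt, Egln3, Gpi1, Pfkm, Aldoc, Ldhb and Ndrg1. The genes between aldolase and pyruvate kinase were largely split, and Gapdh, Tpi1, Eno1, Pkm and Aldoa were higher on stretch in some animals and lower in others. Their log2 changes stayed between -0.21 and 0.26.

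The average stretch effect over both genotypes was called for 0 of 36 members by limma (0% of all genes, lowest member adjusted p = 0.984), and for 0 by edgeR's quasi-likelihood test and DESeq2. At an unadjusted p of at most 0.05 it was passed by 1 member, Ddit4 (2.78%, against 4.73% of all genes). Since each animal gave both cultures, the animal can be entered as a block, and the limma fit with that block called 201 genes (1.47%) and 1 member, Ldhb. Its log2 difference was -0.62 (SE 0.39 and adjusted p = 0.991 without the block, adjusted p = 0.0291 with it by limma). The 4 animals gave -0.57, -0.57, -0.72 and -0.61, in the order WT 1, WT 2, CAV1-/- 1 and CAV1-/- 2. With the block, Ldhb passed without WT animal 1 (adjusted p = 0.0470) and without WT animal 2 (0.0206), but not without CAV1-/- animal 1 (0.151) or CAV1-/- animal 2 (0.124), by limma. Ldhb lies on chromosome 6 from 142490249 to 142507957 of GRCm38, and its share of the lactate dehydrogenase pair per kilobase went from 2.69 to 1.42% and from 6.28 to 4.28% in the WT animals and from 1.42 to 0.778% and from 4.68 to 3.57% in the CAV1-/- animals. At an unadjusted p of at most 0.05, 12 members passed with the block (33.3%, against 21.0% of all genes). They were Slc2a1, Slc16a3, Hk1, Pfkp, Ankrd37 and Ddit4, all higher on stretch, and Ldhb, Pfkm, Egln3, Gpi1, Aldoc and Ndrg1, all lower.

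Of the other members with the largest average differences, Ankrd37 stood at 0.51 (SE 0.53, adjusted p = 0.998), Slc16a3 at 0.41 (SE 0.43, adjusted p = 0.997) and Ddit4 at 0.39 (SE 0.13, adjusted p = 0.984) by limma without the block. Aldoc stood at -0.35 (SE 0.74, adjusted p = 0.999) and Egln3 at -0.35 (SE 0.41, adjusted p = 0.999). The stretched libraries were also the deeper ones, and the part of depth was not tested.

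**Figure D3:**
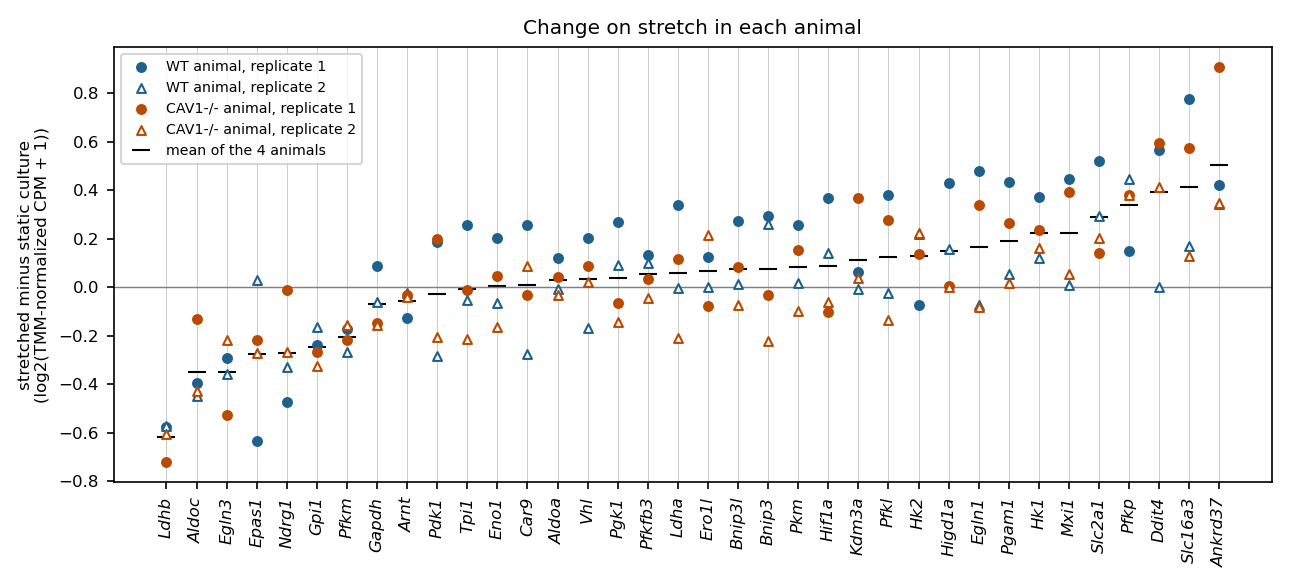
Log2(TMM-normalized CPM + 1) of the stretched minus the static culture of each animal on the vertical axis, for the 36 members ordered by the mean of the 4 animals (black bars). The 4 animals lie together for Ldhb, between -0.72 and -0.57, and spread widely for Slc16a3, from 0.13 to 0.78.

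Loss of CAV1 was compared with WT first in static culture. Limma called 0 of 36 members (0.0732% of all genes, lowest member adjusted p = 0.338), edgeR's quasi-likelihood test and DESeq2 each called 0, and 1 member, Hk2, had an unadjusted p of at most 0.05 (2.78%, against 8.17% of all genes). The fitted difference was above 0 for 29 members and below 0 for 7, with a median of 0.40 against -0.01 over all genes. Both CAV1-/- cultures were above both WT cultures for 10 members (27.8%, against 16.1% of all genes) and below for 1 (2.78%, against 20.8%). The 10 were Hif1a, Epas1, the prolyl hydroxylase Egln1, Slc2a1, Hk2, Pfkl, Pfkfb3, which makes the strongest activator of phosphofructokinase, the mitophagy gene Bnip3, Ddit4 and Mxi1. The member below was Ndrg1. The median rested on single animals, being 0.19 without CAV1-/- animal 1, 0.07 without WT animal 2, 0.68 without CAV1-/- animal 2 and 0.78 without WT animal 1.

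The largest static differences are given with each culture. Epas1 was at 14.3 and 7.10 CPM in WT and 39.1 and 16.9 CPM in CAV1-/- cultures (log2 difference 1.26, SE 0.57, adjusted p = 0.666 by limma). Slc2a1 was at 233 and 146 CPM in WT and 574 and 280 CPM in CAV1-/- cultures (1.11, SE 0.52, adjusted p = 0.690 by limma). Hif1a was at 327 and 199 CPM in WT and 423 and 585 CPM in CAV1-/- cultures (0.96, SE 0.40, adjusted p = 0.622 by limma). In none of these did the groups overlap. Ndrg1, on chromosome 15 from 66929318 to 66969640, was at 465 and 270 CPM in WT and 230 and 77.8 CPM in CAV1-/- cultures (-1.40, SE 0.75, adjusted p = 0.748 by limma). Aldoc (-0.71, SE 1.05) and Car9 (-0.42, SE 1.69) had the next lowest fitted values, and both turned above 0 without WT animal 1 or without CAV1-/- animal 2. Leukocyte markers summed to 5837 CPM in static CAV1-/- replicate 1, and without that animal the log2 difference was 0.68 for Epas1, 0.60 for Slc2a1 and 1.19 for Hif1a.

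On stretch, the comparison of CAV1-/- with WT called 0 of 36 members by limma (0.0585% of all genes, lowest member adjusted p = 0.352) and 0 by edgeR's quasi-likelihood test, while DESeq2 on the recovered reads called 1, Hk2 (adjusted p = 0.0315). At an unadjusted p of at most 0.05, Hk2 and Ddit4 passed (5.56%, against 6.26% of all genes). The median difference was 0.30, with 28 members above and 8 below 0, and it was -0.02 without CAV1-/- animal 1 and -0.17 without WT animal 2. With single cultures left out it ran from -0.17 up to 0.80. Both CAV1-/- cultures were above both WT cultures for 3 members, Epas1, Hk2 and Ddit4 (8.33%, against 14.6% of all genes), and below for 0 (against 15.9%).

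Hk2, the hexokinase that insulin and HIF induce, was the 1 member with all 4 CAV1-/- cultures above all 4 WT cultures (2.78%, against 3.86% of all genes), and 0 members lay below in all (against 5.88%). It lies on chromosome 6 from 82725025 to 82774454. It was at 82.5 and 65.5 CPM in static WT, 78.5 and 76.4 in stretched WT, 129 and 103 in static CAV1-/- and 142 and 121 in stretched CAV1-/- cultures. The stretched comparison gave a log2 difference of 0.75 (SE 0.17, adjusted p = 0.352 by limma). The other largest values on stretch were those of Epas1 (1.32, SE 0.57, adjusted p = 0.836 by limma) and Slc2a1 (0.88, SE 0.52, adjusted p = 0.947 by limma). The lowest were those of Ndrg1 (-1.14, SE 0.75), Aldoc (-0.57, SE 1.05) and Car9 (-0.38, SE 1.69). The static and stretched comparisons use different cultures of the same 4 animals. For 1 gene and 2 cultures in each group, 0.333 is the smallest two-sided p that exact permutation allows.

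**Figure D4:**
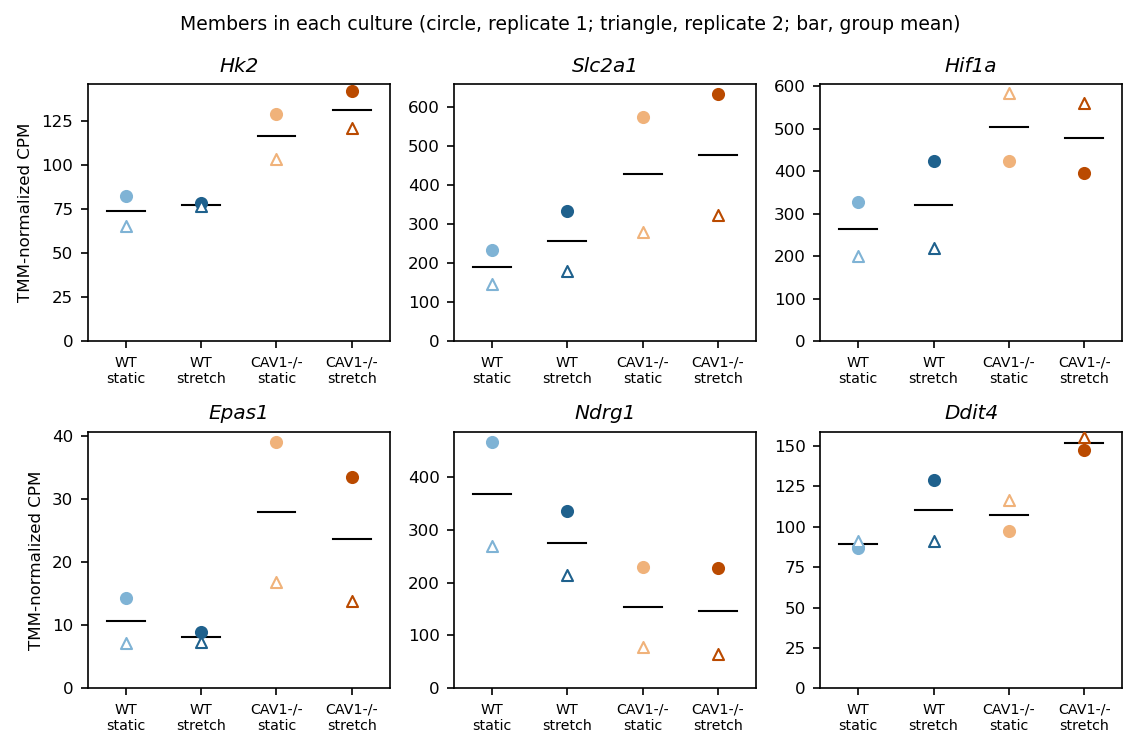
TMM-normalized CPM of 6 members in each culture, with circles for replicate 1, triangles for replicate 2 and bars for the group mean. Hk2 is the member whose 4 CAV1-/- values (103 to 142) all lie above its 4 WT values (65.5 to 82.5), and Ndrg1 is lower in both static CAV1-/- cultures than in both static WT cultures.

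Whether stretch acted differently in the genotypes was tested by the interaction. Limma called 0 of 36 members (0% of all genes, lowest member adjusted p = 1), 0 had an unadjusted p of at most 0.05 (0.483% of all genes), and edgeR's quasi-likelihood test and DESeq2 each called 0. The median interaction was -0.06, with 14 members above and 22 below 0. The lowest values were those of Bnip3 (-0.41, SE 0.78), Hif1a (-0.34, SE 0.57) and Higd1a, a small protein of the mitochondrial inner membrane (-0.29, SE 0.48). The highest were those of Ndrg1 (0.26, SE 1.05), Ankrd37 (0.25, SE 1.05) and Ddit4 (0.22, SE 0.26). With the animal as a block no member passed either, and the adjusted p of Bnip3 was 0.947 by limma. Hif1a, Pgk1 and Bnip3 were higher on stretch in both WT animals and lower in both CAV1-/- animals (8.33% of members, against 4.11% of all genes), and 0 members did the reverse (against 4.87%).

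The glycolytic enzymes are given by step. Gpi1 was at 1168 and 657 CPM in static WT, 991 and 587 in stretched WT, 1189 and 727 in static CAV1-/- and 988 and 580 in stretched CAV1-/- cultures, lower on stretch in each animal and close in level between the genotypes. Pfkl ranged from 134 to 421 CPM, and Pfkfb3 from 58.7 to 148 CPM. Pfkp was at 138 and 57.9 CPM in static WT, 154 and 79.2 in stretched WT, 169 and 61.5 in static CAV1-/- and 221 and 80.4 in stretched CAV1-/- cultures, so its replicate numbers lay further apart than static and stretch. Aldoa ranged from 960 to 2300 CPM, Tpi1 from 425 to 882, Gapdh from 349 to 764, Pgam1 from 543 to 1424 and Eno1 from 1571 to 3282, and the lowest culture was WT replicate 2, static or stretched, for each of these 5 enzymes. Gapdh, often taken as a reference gene of constant level, thus spanned 349 to 764 CPM over these cultures.

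Pkm was at 3458 and 2051 CPM in static WT, 4131 and 2074 in stretched WT, 4257 and 2902 in static CAV1-/- and 4739 and 2713 in stretched CAV1-/- cultures. Ldha was at 1588 and 965 CPM in static WT, 2010 and 964 in stretched WT, 2132 and 1433 in static CAV1-/- and 2308 and 1238 in stretched CAV1-/- cultures. For both genes the replicate 1 cultures lay above all replicate 2 cultures. Aldoc was at 41.3 and 14.0 CPM in static WT, 31.2 and 9.98 in stretched WT, 28.8 and 6.89 in static CAV1-/- and 26.2 and 4.87 in stretched CAV1-/- cultures, low beside Aldoa in all of them.

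Among the hypoxia-induced genes, Bnip3 was at 100 and 44.8 CPM in static WT, 123 and 54.0 in stretched WT, 154 and 104 in static CAV1-/- and 151 and 88.9 in stretched CAV1-/- cultures. Ndrg1, at 335 and 214 CPM in stretched WT and 228 and 64.5 in stretched CAV1-/- cultures, was lower in CAV1-/- replicate 1 than in WT replicate 1, and lower in CAV1-/- replicate 2 than in every other culture. Egln3 was at 161 and 62.5 CPM in static WT, 131 and 48.5 in stretched WT, 146 and 115 in static CAV1-/- and 101 and 98.7 in stretched CAV1-/- cultures, with the genotypes overlapping. Epas1, in stretched cultures, was at 8.88 and 7.27 CPM in WT and 33.4 and 13.8 CPM in CAV1-/-, where the higher value belongs to the animal with the high leukocyte markers.

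The remaining members gave smaller or less even differences. Higd1a was higher on stretch by 0.43 and 0.16 log2 in the WT animals and by 0.01 and 0.00 in the CAV1-/- animals. Pdk1, a pyruvate dehydrogenase kinase, ranged from 24.8 to 85.9 CPM. It was higher on stretch in both replicate 1 animals and lower in both replicate 2 animals. Egln1, the main oxygen sensor, ranged from 63.6 to 154 CPM with the same split. Kdm3a, a histone demethylase, ranged from 50.9 to 70.2 CPM, and Bnip3l, a mitophagy receptor, from 103 to 167 CPM. For 7 members (Vhl, Aldoa, Gapdh, Pgk1, Pgam1, Ldha and Bnip3l) the annotation has a pseudogene named after the gene, so reads may have been split. Sequence similarity was not measured, and pseudogenes under other names were not searched for.

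Genes around these members were read from lists of the same pathways, and limma without a block called 0 genes of any list in any comparison. Of the 15 tested other isoforms and regulators of glycolysis (28 listed), 2 had an unadjusted p of at most 0.05 in each genotype comparison, Slc2a3 and Ldhd, both lower in CAV1-/-. Of all genes, 8.17% passed that threshold in static culture and 6.26% on stretch. Slc2a3 (GLUT3) was at 54.2 and 36.7 CPM in static WT, 30.4 and 25.3 in stretched WT, 14.1 and 7.40 in static CAV1-/- and 10.2 and 7.005 in stretched CAV1-/- cultures (log2 difference -2.02, adjusted p = 0.125 static, and -1.60, adjusted p = 0.328 on stretch, by limma). It thus ran opposite to Slc2a1 between the genotypes. Ldhd, a D-lactate dehydrogenase, was at 2.53 to 5.11 CPM in WT and 0.930 to 1.85 CPM in CAV1-/- cultures. With the animal block, limma called 2 genes of this list for the average stretch effect, against 1.47% of all genes. They were Bpgm (0.58, adjusted p = 0.0443 by limma), which diverts a glycolytic intermediate to bisphosphoglycerate, and the lactate transporter Slc16a1 (-0.64, adjusted p = 0.0327 by limma), which lay opposite to Slc16a3.

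The list of pyruvate dehydrogenase and mitochondrial pyruvate entry had 14 genes. Of these, Pdk2 and Pdk4 had an unadjusted p of at most 0.05 in both genotype comparisons. That threshold was passed by 8.17% of all genes in static culture and 6.26% on stretch. Pdk4 was at 13.0 to 17.9 CPM in WT and 3.34 to 8.78 CPM in CAV1-/- cultures, and Pdk2 at 6.85 to 12.9 and 4.95 to 6.51 CPM. For both genes all 4 CAV1-/- cultures lay below all 4 WT cultures, as they did for 5.88% of all genes. Pcx, pyruvate carboxylase, was the 1 gene of the list past that threshold for the average stretch effect (-0.36, adjusted p = 0.984 by limma), which 4.73% of all genes passed. The 7 genes of the pentose phosphate branch gave 0 at that threshold in every comparison, and the 13 tested other regulators of HIF gave 1, Tceb1, the elongin C subunit of the VHL ligase (0.51 in static CAV1-/-, adjusted p = 0.419 by limma).

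Of 40 tested hypoxia-induced genes outside the members, 6 were higher at an unadjusted p of at most 0.05 in static CAV1-/- cultures, and 4 in stretched ones. In either direction, 8.17% of all genes passed in static culture and 6.26% on stretch. The median of the list was 0.25 in static culture and 0.27 on stretch. Without CAV1-/- animal 1, which had the high leukocyte markers, it was 0.15 and 0.08. Vegfa, the main angiogenic factor, was at 168 and 136 CPM in static WT, 269 and 185 in stretched WT, 307 and 260 in static CAV1-/- and 397 and 372 in stretched CAV1-/- cultures. Its static and stretched groups did not overlap within either genotype (average log2 difference 0.50, adjusted p = 0.984 by limma and 0.0327 with the animal block). The other 5 higher in static CAV1-/- cultures were Angptl4, Gys1, Gbe1, Car12 and Rbpj, and the 4 on stretch were Vegfa, Gys1, Kdm6b and Rbpj. With the animal block the average stretch effect was called by limma for 3 genes of this list, against 1.47% of all genes. They were Vegfa, Plod2 (0.71, adjusted p = 0.0480), a collagen lysyl hydroxylase, and Adm (-1.12, adjusted p = 0.0278), the vasodilator adrenomedullin, so that hypoxia-induced genes stood on both sides.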

How the data were processed

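RNAseq was done on 8 cultures of MCs from 4 animals. After Cutadapt trimming, the authors aligned reads to the transcriptome of GRCm38, used RSEM for estimated counts per gene and deposited the signal as TMM-normalized CPM (edgeR) for 13687 genes. All values (100%, tolerance 0.01 read) were whole multiples of the value of 1 read in their library, so reads were recovered. Intervals are not given, and floors of 3 reads cover counting error only.

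Genes with at least 1 CPM in at least 2 libraries (13665) were compared by limma (version 3.58.1, R 4.3.3) on log2(CPM + 1), which understates changes of low genes, with 1 mean per group, 8 libraries, eBayes with trend, 4 residual degrees of freedom and Benjamini-Hochberg adjustment. All tests are two-sided. Alternatives were edgeR's quasi-likelihood test (4.0.16) and DESeq2 (1.42.0) on the recovered reads, other scalings, pseudocounts, filters and variance models, the animal as a block, and leaving out cultures or animals. The limma and edgeR tests were also run on simulated data with independent libraries and no animal effect, so the pairing of these cultures was not covered. For the stretch comparisons the labels give the same animal for same-numbered cultures, and their deviations correlated at 0.703 in WT and 0.850 in CAV1-/- across genes. P-values of the main fit rest on the spread between the 2 cultures of a group, pooled over the 4 groups and adjusted by a trend over all genes. They count the 2 cultures of an animal as independent. Those with the animal block rest on the spread of the stretch change between animals of a genotype. In both there are 2 animals per genotype. Positions and transcript lengths are from GENCODE M21 (13597 identifiers found), promoters and their sequences from RefSeq.

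Members and lists were chosen with earlier results of these data known. All members are named, with full values for the 3 highest and 3 lowest in each comparison, and list genes where called or past an unadjusted p of at most 0.05, which is given as a description. Of the list genes past that threshold, 1 is not reported here.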

Additional observations from a re-analysis of the deposited data

Results flagged for a closer look

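Hif1a, Pgk1 and Bnip3 were higher on stretch in both WT animals and lower in both CAV1-/- animals. The interaction was -0.34 (log2) for Hif1a, -0.28 for Pgk1 and -0.41 for Bnip3, with an adjusted p of 1 for each by limma. Over all genes, 4.11% showed this order of signs. Groups of 2 cultures are too small for a test of single outlying samples.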

How the results depend on the processing

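The count of members called stayed at 0 under most alternatives (140 of 146 values). The exceptions were 1 in static and 1 in stretched cultures for CAV1-/- against WT with the replicate block (Slc2a1, adjusted p = 0.0251 and 0.0485 by limma), 1 on stretch with DESeq2 (Hk2), and, for the average stretch effect, 1 with the replicate block (Ldhb), and, chosen after seeing the data, 1 with the block without WT animal 1 and 4 without WT animal 2. For the genotype comparisons the replicate number pairs different animals (correlation of deviations 0.522 and 0.484 in 2 pairs), and there the block called 1 gene of the other glycolysis isoforms in each, Slc2a3 (adjusted p = 0.0147 and 0.0341 by limma), and 2 static, Vegfa among them (adjusted p = 0.0364 by limma), and 1 stretched of the hypoxia-induced genes outside the members. All 146 medians moved by less than the spread between cultures. That spread (0.52 to 1.04 log2) was wider than the medians themselves, so this rule could hardly fail and does not show that they were stable. With single cultures left out, the median ran from -0.34 to 0.61 for stretch in WT. It ran from -0.17 to 0.80 for CAV1-/- against WT on stretch. With the replicate block limma called 246 (main 10), 110 (main 8), 201 (main 0) and 1 (main 0) of all genes in static and stretched genotype comparisons, average stretch and CAV1-/- stretch, and with the block without single animals 0, 5, 124 and 769 for average stretch. DESeq2 called 309, 237, 34, 7 and 3 (WT stretch), and edgeR 2 and 6 for the genotype comparisons. eBayes without trend gave 6 in static genotype, and only the 4 libraries or without 1 animal 0 in both.

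Signs turned for low or uneven members when cultures or animals were left out. Leaving out both cultures of CAV1-/- animal 2 gave 0.25 and 0.53 for Aldoc and 1.199 and 1.18 for Car9 in static and stretched genotype comparisons, and WT animal 1 gave 0.0357 and 0.20, and 0.78 and 1.08. The interaction was -0.0348 for Ankrd37 without CAV1-/- animal 1 and -0.0618 for Ddit4 without WT animal 2. With single cultures left out, the genotype ranges were -1.67 to 0.25 and -1.68 to 0.53 for Aldoc and -2.04 to 1.199 and -1.95 to 1.18 for Car9. The average stretch ranges were -0.90 to 0.20 for Aldoc and -0.70 to 0.0055 for Egln3. The interaction ranges were -0.64 to 1.13 for Ankrd37, -0.993 to 0.18 for Bnip3, -0.0256 to 0.47 for Ddit4, -0.81 to 0.14 for Hif1a, -0.70 to 0.12 for Higd1a and -0.64 to 1.16 for Ndrg1. In CAV1-/- on stretch they were -0.26 to 1.52 for Ankrd37, -0.68 to 0.0882 for Gpi1 and -0.34 to 1.11 for Pfkp, and in WT -1.20 to 0.36 for Aldoc, -0.11 to 0.88 for Ankrd37, -0.22 to 1.16 for Slc16a3 and -0.0388 to 0.85 for Slc2a1. A culture left out of a stretch comparison sets different animals against each other, and the lone culture is assumed to vary like the other groups. The causes were not tested.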
